A study of Homo sapiens with 18 samples.

Results

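Immediate early genes are the first genes a cell transcribes when a signal reaches its nucleus, and 10 of them were followed here, ARC, CSRNP1, EGR1, FOS, FOSB, JUNB, IER2, NR4A1, DUSP1 and ATF3, of 57905 Ensembl genes counted. ARC and CSRNP1 were chosen by their log2 fold change, which was positive and past the test in all 3 experiments of the study, so their difference between the lines is described and not tested. The other 8 genes were added, with earlier results of these data known, to ask whether the whole early response was higher with them. Each gene was found by its symbol, and all 10 had enough counts to be tested in each experiment.

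BE(2)-m17 cells derive from a human neuroblastoma. All cells carried pSBbi-Hyg-APP, a transposable vector with human APP, and a second vector, which was pSBbi-Pur-ABCC1(WT) with codon-optimized human ABCC1 in the ABCC1-overexpressing cells and the empty pSBbi-Pur in the control cells, named Puro in the labels. ABCC1 is a membrane transporter that exports molecules from the cytoplasm. The 18 RNA libraries came from 3 experiments, with 3 cultures of either line in each. A well was plated with 14000000 cells without selection antibiotics, the medium was replaced daily and the cells were lysed on day 4. The replicates are weekly cultures of stably transfected lines, so they do not repeat the transfection within an experiment. The repeat experiments used cryopreserved cells and newly transfected cells, and the labels do not say which of the second and the third experiments is which. The labels of the first experiment name a TruSeq kit beside the SMARTer kit named for all libraries. According to the paper the first experiment used the TruSeq kit, and the later ones used the SMARTer kit for total RNA and another sequencer.

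The depth was 27433393 to 57937653 assigned read pairs in libraries of the first experiment, 19577853 to 30996228 in the second and 8866994 to 13332413 in the third. Exogenous ABCC1 had 51035 to 594404 counts in the 9 ABCC1 libraries and 0 to 15 in the 9 empty vector libraries. All 9 adrenergic neuroblastoma markers had at least 1 CPM (counts scaled to a common library size with edgeR's TMM factors, within an experiment) in every group. They summed to 9472 to 10394 CPM in empty vector cells and 6793 to 7462 CPM in ABCC1 cells of the first experiment, and their sums overlapped between the lines in the later ones. The 4 immune markers together came to at most 0.115 CPM in any library of the first experiment. In the second they summed to 7.75 to 10.3 CPM in empty vector cells and 1.91 to 6.61 CPM in ABCC1 cells, and in the third to 30.0 to 31.3 CPM and 17.6 to 19.7 CPM. Mesenchymal markers summed to 134 to 138 CPM in empty vector cells and 207 to 210 CPM in ABCC1 cells of the first experiment, where 5 of 6 tested were called higher (17.9% of all genes were), and 0 of 7 were called higher in the later experiments (1.25% and 2.03%). Their part in the results below was not tested. Olfactory receptor genes, which are largely silent outside the nose, served as a measure of background reads, and their silence in these cells was not tested. Per kilobase of exon they had 0.00512 CPM in empty vector cells and 0.00412 CPM in ABCC1 cells of the first experiment, 0.582 and 0.303 CPM in the second, and 1.59 and 1.26 CPM in the third. In the first experiment, ABCC1 replicate 3 stood apart from the others of its group, with a chi-square per degree of freedom of 21.5 and 16.1 against replicates 1 and 2, which came to 1.48 against each other. It also held the highest value of its group for 9 of the 10 immediate early genes, so the log2FC of the 10 genes in that experiment is given with and without it. The other values of the first experiment include it unless stated.

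Immediate early genes need no new protein to be switched on. Growth factors, calcium entry and stress reach them through kinases such as ERK, which act on transcription factors already bound at their promoters, among them SRF with its ternary complex partners at CArG boxes and CREB at cyclic AMP response elements (CRE). Their transcripts are short lived. In neurons, ARC and EGR1 are widely used as markers of recent activity.

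The promoters show the sequence context of these genes. RefSeq windows on GRCh38.p14, from 250 bases before to 50 bases after each annotated start, were found for 9 of the 10 genes, with 2 windows each for CSRNP1, NR4A1 and ATF3. The windows of the 3 tested genes that were higher in every experiment (EGR1, JUNB and IER2), 1 of the 2 windows of CSRNP1, and those of FOS and DUSP1 for comparison read as follows, with matches to the searched motifs in capitals. EGR1 lies at chr5:138465229-138465528 on the plus strand, JUNB at chr19:12791236-12791535 (plus), IER2 at chr19:13150161-13150460 (plus), CSRNP1 at chr3:39153542-39153841 (minus), FOS at chr14:75278578-75278877 (plus) and DUSP1 at chr5:172771146-172771445 (minus).
EGR1: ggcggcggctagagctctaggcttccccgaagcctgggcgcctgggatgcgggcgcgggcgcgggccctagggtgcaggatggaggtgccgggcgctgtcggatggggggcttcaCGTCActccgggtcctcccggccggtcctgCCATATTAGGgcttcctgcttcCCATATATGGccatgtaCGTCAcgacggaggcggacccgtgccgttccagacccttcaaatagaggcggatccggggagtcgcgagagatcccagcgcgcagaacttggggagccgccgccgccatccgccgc
JUNB: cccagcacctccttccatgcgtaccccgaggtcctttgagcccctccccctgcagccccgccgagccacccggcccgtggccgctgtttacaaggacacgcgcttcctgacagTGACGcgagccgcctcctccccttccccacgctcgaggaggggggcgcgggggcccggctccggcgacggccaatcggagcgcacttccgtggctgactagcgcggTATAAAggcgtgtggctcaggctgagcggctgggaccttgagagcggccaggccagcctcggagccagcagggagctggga
IER2: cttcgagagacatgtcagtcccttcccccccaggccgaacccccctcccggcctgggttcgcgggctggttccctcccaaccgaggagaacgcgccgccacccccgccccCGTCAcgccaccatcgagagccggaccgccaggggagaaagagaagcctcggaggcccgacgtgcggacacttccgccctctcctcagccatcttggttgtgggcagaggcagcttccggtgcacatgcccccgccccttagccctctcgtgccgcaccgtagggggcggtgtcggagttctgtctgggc
CSRNP1: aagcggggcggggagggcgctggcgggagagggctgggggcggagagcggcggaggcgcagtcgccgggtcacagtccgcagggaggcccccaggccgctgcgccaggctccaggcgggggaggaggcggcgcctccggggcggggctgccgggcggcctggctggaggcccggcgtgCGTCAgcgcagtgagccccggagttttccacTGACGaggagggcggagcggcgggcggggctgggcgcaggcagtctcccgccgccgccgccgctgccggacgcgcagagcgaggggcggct
FOS: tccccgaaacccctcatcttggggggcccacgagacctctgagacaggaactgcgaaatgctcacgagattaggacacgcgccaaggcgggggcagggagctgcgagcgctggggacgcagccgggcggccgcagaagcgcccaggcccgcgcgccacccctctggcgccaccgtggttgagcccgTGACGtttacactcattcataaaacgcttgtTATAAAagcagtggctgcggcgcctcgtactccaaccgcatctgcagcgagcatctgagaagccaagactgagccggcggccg
DUSP1: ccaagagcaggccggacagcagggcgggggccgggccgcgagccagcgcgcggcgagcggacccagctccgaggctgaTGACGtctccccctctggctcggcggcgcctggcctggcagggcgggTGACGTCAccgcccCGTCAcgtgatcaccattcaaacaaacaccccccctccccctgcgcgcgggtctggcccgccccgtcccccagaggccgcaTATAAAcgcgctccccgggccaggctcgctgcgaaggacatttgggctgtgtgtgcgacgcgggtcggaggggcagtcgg

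EGR1 was the only gene of the 9 with a CArG box in its window, and it had 2, starting at -105 and -83 from the start site. Sequence outside the windows was not searched, so a gene without a match here may hold the motif further away. A CArG box was found in 1.60% of 27305 genes with a window. The core of a CRE, TGACG, was found on either strand in 7 of the 9 genes, CSRNP1 (-72 and -41), EGR1 (-135 and -66), FOS (-64), FOSB (-60), JUNB (-137), IER2 (-140) and DUSP1 (-172, -125, -122 and -111), against 28.4% of all genes. The full CRE, TGACGTCA, which contains the core on both strands, was found in DUSP1 alone (-125), against 2.25% of all genes. A TATA box, TATAAA on either strand, was found in 5 of 9 genes, FOS (-33), FOSB (-30), JUNB (-31), DUSP1 (-30) and 1 window of ATF3 (-230), against 13.99% of all genes. The EGR site GCGGGGGCG was found in none of these windows and in 6.14% of all genes. A gene counted once if any of its windows held the motif. JUNB and FOS held the same kinds of motif, a CRE core and a TATA box. A match is a description of the letters and was not tested for use.

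ARC and CSRNP1 were the genes chosen for their rise. ARC (GRCh37 chr8:143692405-143696833, minus strand) encodes a protein of the synapse that takes part in the removal of AMPA receptors. In empty vector cells of the first experiment ARC had 142, 122 and 113 CPM in replicates 1 to 3, and in ABCC1 cells 263, 261 and 334 CPM. The second experiment gave 69.9, 68.0 and 66.8 CPM in empty vector cells and 210, 168 and 204 CPM in ABCC1 cells. In the third experiment the values were 62.3, 88.6 and 59.4 CPM in empty vector cells and 275, 365 and 353 CPM in ABCC1 cells. All ABCC1 libraries lay above all empty vector libraries of their experiment. The log2 fold change (log2FC, ABCC1 minus empty vector) was 1.18 ± 0.11 (SE, n = 3 per group here and below), 1.51 ± 0.17 and 2.24 ± 0.20 in the first, second and the third experiments.

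CSRNP1 (chr3:39183346-39196053, minus strand) encodes a nuclear protein named for a cysteine- and serine-rich region, first described as induced by AXIN1. Its level was 44.5 to 49.2 CPM in empty vector cells and 64.9 to 72.1 CPM in ABCC1 cells of the first experiment. The second experiment gave 15.7 to 18.6 and 29.5 to 39.1 CPM, and the third gave 22.3 to 23.7 and 51.1 to 73.7 CPM. The groups did not overlap in any experiment. The log2FC was 0.50 ± 0.06, 1.02 ± 0.16 and 1.47 ± 0.17. The lowest log2FC of the 3 experiments was 1.18 for ARC and 0.50 for CSRNP1, and of the genes that were not chosen it was 0.96 for EGR1, 0.47 for JUNB, 0.44 for IER2, 0.34 for FOS, 0.22 for DUSP1, -0.10 for NR4A1, -0.33 for ATF3 and -0.71 for FOSB. Without ABCC1 replicate 3 the log2FC of the first experiment was 1.05 for ARC and 0.45 for CSRNP1. Of the other members of the CSRNP family, CSRNP2 had a log2FC of -0.39 ± 0.04 in the first experiment (edgeR adjusted p = 3.80e-05), -0.0047 in the second and 0.04 in the third, and CSRNP3 had -0.01, 0.39 and 0.42, none of which passed the test within an experiment. The fit of all 18 libraries described below called a member of this family other than CSRNP1 higher (8.72% of all genes were).

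**Figure D1:**
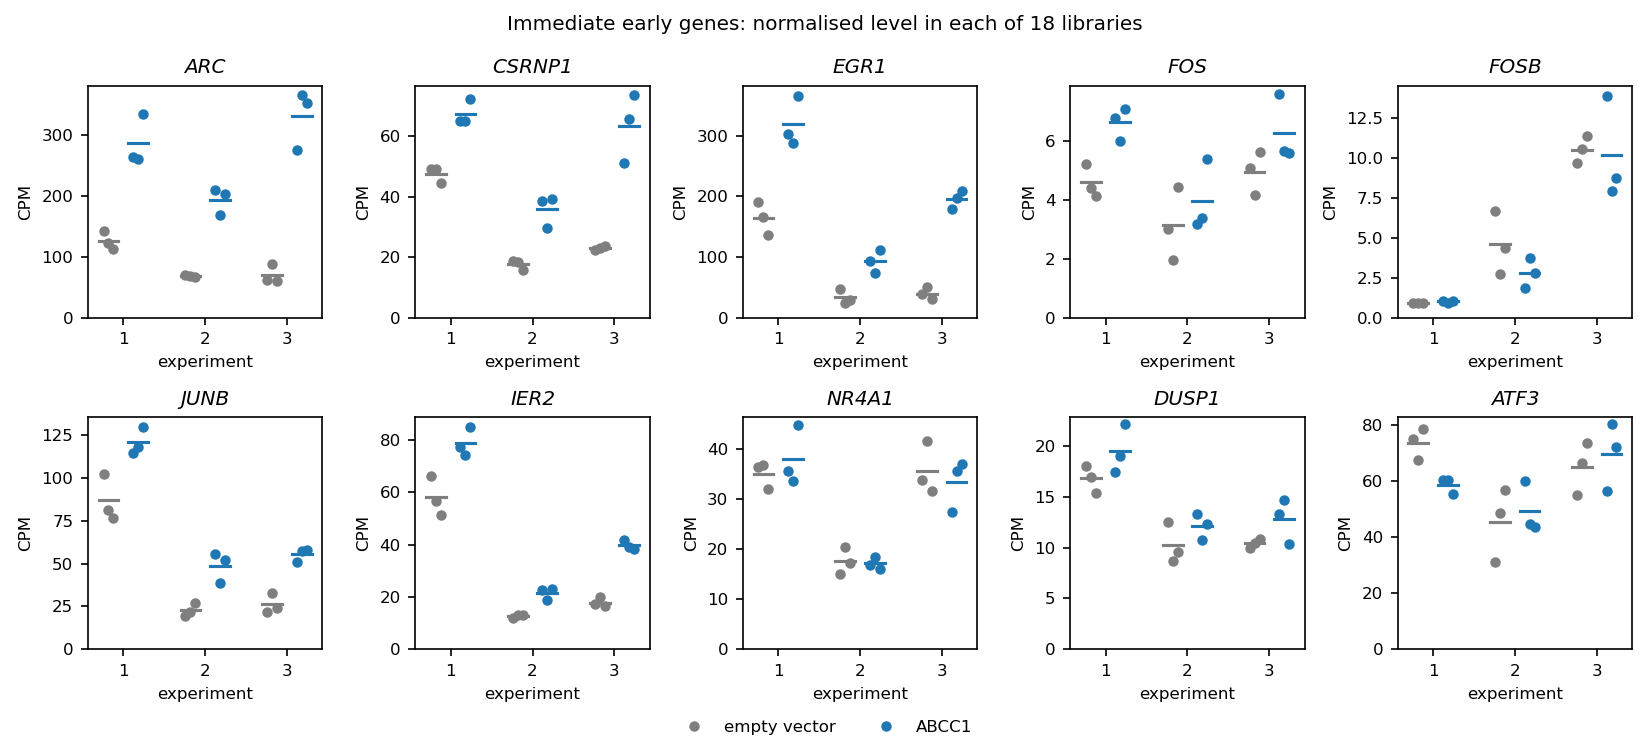
CPM of each immediate early gene (vertical axis, from 0) in each library, by experiment (horizontal axis). Points are libraries and horizontal lines are means of 3, in grey for empty vector cells and in blue for ABCC1 cells. ARC, CSRNP1, EGR1, JUNB and IER2 have all blue points above all grey points in each experiment, whereas FOSB, NR4A1 and DUSP1 overlap in each.

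Of the other 8 genes, 3 rose in ABCC1 cells in each of the 3 experiments, EGR1, JUNB and IER2, and the remaining 5 did not. With the background of each library as a covariate EGR1 alone kept its call in the first and the second experiment, and without empty vector replicate 3 of the second JUNB alone was called there. Over all genes, the covariate took calls higher from 3040 to 427 in the first and from 425 to 4 in the second. Without that library the second had 5. In the first experiment 4 of the 8 were called higher (EGR1, FOS, JUNB and IER2), where 17.9% of the 16995 genes tested were called higher, and ATF3 was called lower, where 19.7% were. Calls needed an edgeR quasi-likelihood p, adjusted by Benjamini and Hochberg's method across every gene tested, that did not exceed 0.05. The second experiment had 3 of 8 called higher and 0 lower, against 1.25% of 34091 genes higher and 0.458% lower. In the third experiment it was 3 of 8 higher and 0 lower, against 2.03% of 36509 genes higher and 0.767% lower. Genes called higher in all 3 experiments made up 1.22% of 16689 genes tested in each, and 37.5% (3 of 8) of these immediate early genes, and genes called lower in all 3 made up 0.138% and 0 of 8. The 8 genes were chosen with earlier results of these data known, so these shares describe them and do not test the early response. In the first experiment all ABCC1 libraries lay above all empty vector libraries for 4 of the 8 genes and below them for 1, against 24.7% and 25.7% of all genes tested. The second experiment had 3 above and 0 below, against 13.5% and 16.4%, and the third had 3 above and 0 below, against 8.59% and 10.9%. The median log2FC of the 8 genes was 0.33, 0.30 and 0.32, beside 0.0074, -0.19 and -0.09 for all genes tested. In these bulk samples, more cells with a transcript and more transcript per cell cannot be told apart.

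EGR1 (chr5:137801179-137805004, plus strand), a zinc finger transcription factor, had the largest log2FC of the 8 genes in every experiment. It measured 191, 166 and 136 CPM in empty vector replicates 1 to 3 of the first experiment and 303, 288 and 365 CPM in ABCC1 replicates. In the second experiment it was at 46.9, 24.8 and 28.9 CPM in empty vector cells and at 93.9, 73.2 and 112 CPM in ABCC1 cells. The third experiment gave 38.2, 49.8 and 30.1 CPM against 179, 198 and 209 CPM. The groups did not overlap, and empty vector replicate 1 was the highest of its group in the first and second experiments. The log2FC was 0.96 ± 0.13 (edgeR adjusted p = 0.000475), 1.47 ± 0.21 (adjusted p = 0.00118) and 2.31 ± 0.19 (adjusted p = 6.60e-17). Without ABCC1 replicate 3 the value of the first experiment was 0.85 (adjusted p = 0.0282). Without empty vector replicate 3 the second experiment gave 1.39 and no call (adjusted p = 0.0710).

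The rise of EGR1 differed in size between experiments. In a fit of all 18 libraries the log2FC of the third experiment exceeded that of the first by 1.33 and that of the second by 0.89, and the edgeR test of the difference over the 3 experiments gave an adjusted p of 0.0121. Of the 8 genes EGR1 was the only one called in this test, against 1.19% of 46225 genes. The call was lost without empty vector replicate 1 of the first experiment and without replicate 3 of either line in the third experiment, and also with library totals in place of TMM. The first experiment differed from the later ones in depth and in the kits their labels name, and the third from the second in depth, which cannot be told apart from the experiment itself.

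JUNB (chr19:12902310-12904124, plus strand), an AP-1 subunit that pairs with FOS proteins, was at 102, 81.7 and 76.95 CPM in empty vector cells and 115, 118 and 130 CPM in ABCC1 cells of the first experiment. The second experiment gave 19.4, 21.8 and 26.7 CPM against 55.5, 38.5 and 52.3 CPM, and the third gave 21.9, 32.8 and 24.3 CPM against 51.0, 57.3 and 57.9 CPM. All ABCC1 libraries were above all empty vector libraries, and in the first experiment empty vector replicate 1 was the highest of its group. The log2FC was 0.47 ± 0.10 (edgeR adjusted p = 0.00448), 1.11 ± 0.17 (adjusted p = 0.00283) and 1.07 ± 0.17 (adjusted p = 3.05e-06). The call of the first experiment was lost without ABCC1 replicate 3 (log2FC 0.41, adjusted p = 0.0946). JUNB shares 259 exon bases with HOOK2 on the opposite strand, and reads were counted without regard to strand. Per kilobase HOOK2 was at 37.8% of the JUNB level in empty vector cells and 19.0% in ABCC1 cells of the third experiment. HOOK2 itself had a log2FC of 0.16, 0.16 and 0.08 and did not pass the test in any experiment.

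IER2 (chr19:13261229-13265722, plus strand), a short-lived nuclear protein of the early response, was at 66.3, 56.7 and 51.4 CPM in empty vector cells of the first experiment and 77.5, 74.1 and 85.0 CPM in ABCC1 cells. The second experiment gave 12.1, 13.015 and 13.003 CPM against 22.5, 19.0 and 22.8 CPM, and the third 17.1, 19.8 and 16.5 CPM against 41.9, 39.1 and 38.5 CPM. Again no group overlapped its counterpart. The log2FC was 0.44 ± 0.09 (edgeR adjusted p = 0.00344), 0.76 ± 0.17 (adjusted p = 0.0248) and 1.16 ± 0.16 (adjusted p = 4.34e-07). IER2 shares 946 exon bases with ENSG00000267598 on the opposite strand, which is listed at 0 in every library. Reads on the shared bases cannot be told apart by strand, so this 0 does not show whether the opposite strand was transcribed. Without ABCC1 replicate 3 the first experiment gave 0.38 (adjusted p = 0.0409). The call of the second experiment was lost when any library other than ABCC1 replicate 3 was left out, with adjusted p between 0.0531 and 0.139, and with library totals in place of TMM (log2FC 0.55, adjusted p = 0.126).

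**Figure D2:**
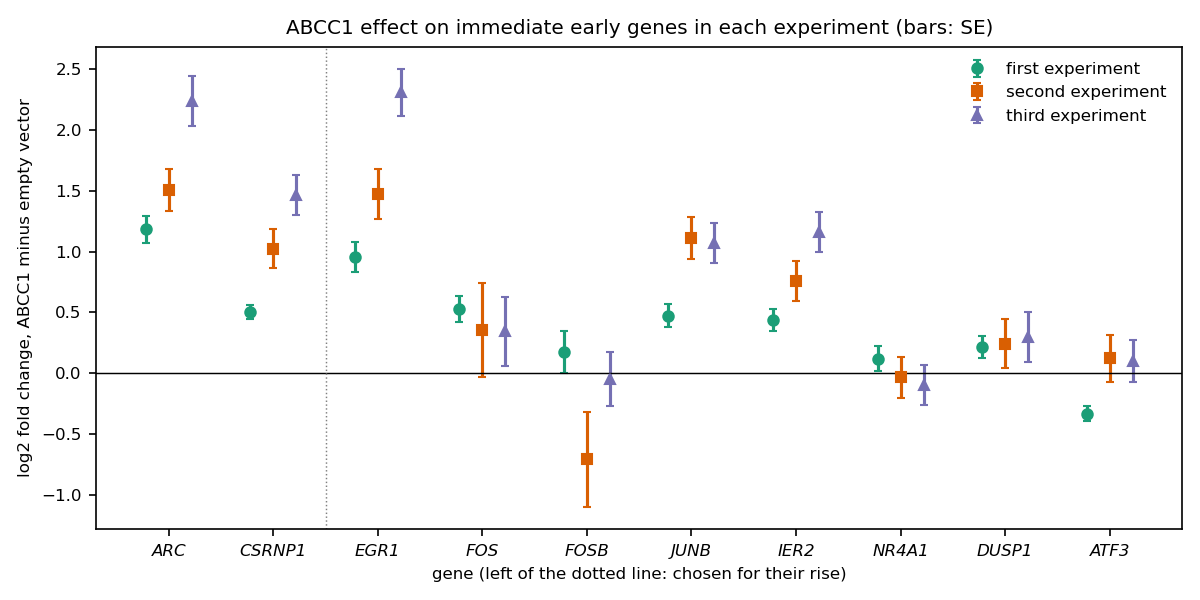
log2FC of each immediate early gene (vertical axis, ABCC1 minus empty vector) in the first, second and the third experiments (circles, squares and triangles), with bars of 1 SE. ARC reached 2.24 and EGR1 2.31 in the third experiment, whereas NR4A1 stayed between -0.10 and 0.12.

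FOS and FOSB, the AP-1 subunits whose proteins pair with JUN proteins, were not called in the later experiments, and no test compared them with JUNB. FOS was at 5.24, 4.41 and 4.16 CPM in empty vector cells and 6.81, 6.01 and 7.12 CPM in ABCC1 cells of the first experiment, without overlap, and rose by a log2FC of 0.53 ± 0.11 (edgeR adjusted p = 0.00349), or 0.48 without ABCC1 replicate 3 (adjusted p = 0.00136). Its groups overlapped in the second experiment, at 3.01, 1.97 and 4.43 CPM against 3.17, 3.39 and 5.39 CPM (log2FC 0.35 ± 0.38, adjusted p = 0.609). They overlapped in the third as well, at 5.10, 4.17 and 5.63 CPM against 7.61, 5.67 and 5.61 CPM (log2FC 0.34 ± 0.28, adjusted p = 0.612). FOS had 46 to 413 counts per library over the series, and EGR1 289 to 21165.

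The background per kilobase came to 60.04% of the FOS level in empty vector cells and 24.6% in ABCC1 cells of the second experiment, and to 103% and 64.7% in the third. For FOSB it was 70.6% and 60.1% in the second experiment and 83.7% and 68.8% in the third. The part of background reads in the values of FOS and FOSB was not tested. In the first experiment the background was at most 0.360% of the FOS level and 3.14% of the FOSB level. FOSB had 0.904 ± 0.034 CPM (SD, n = 3) in empty vector cells and 1.01 ± 0.10 CPM in ABCC1 cells there, with a log2FC of 0.17 ± 0.17 (edgeR adjusted p = 0.476), or 0.14 without ABCC1 replicate 3. Its log2FC was -0.71 ± 0.39 (adjusted p = 0.296) and -0.05 ± 0.22 (adjusted p = 0.948) in the later experiments.

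**Figure D3:**
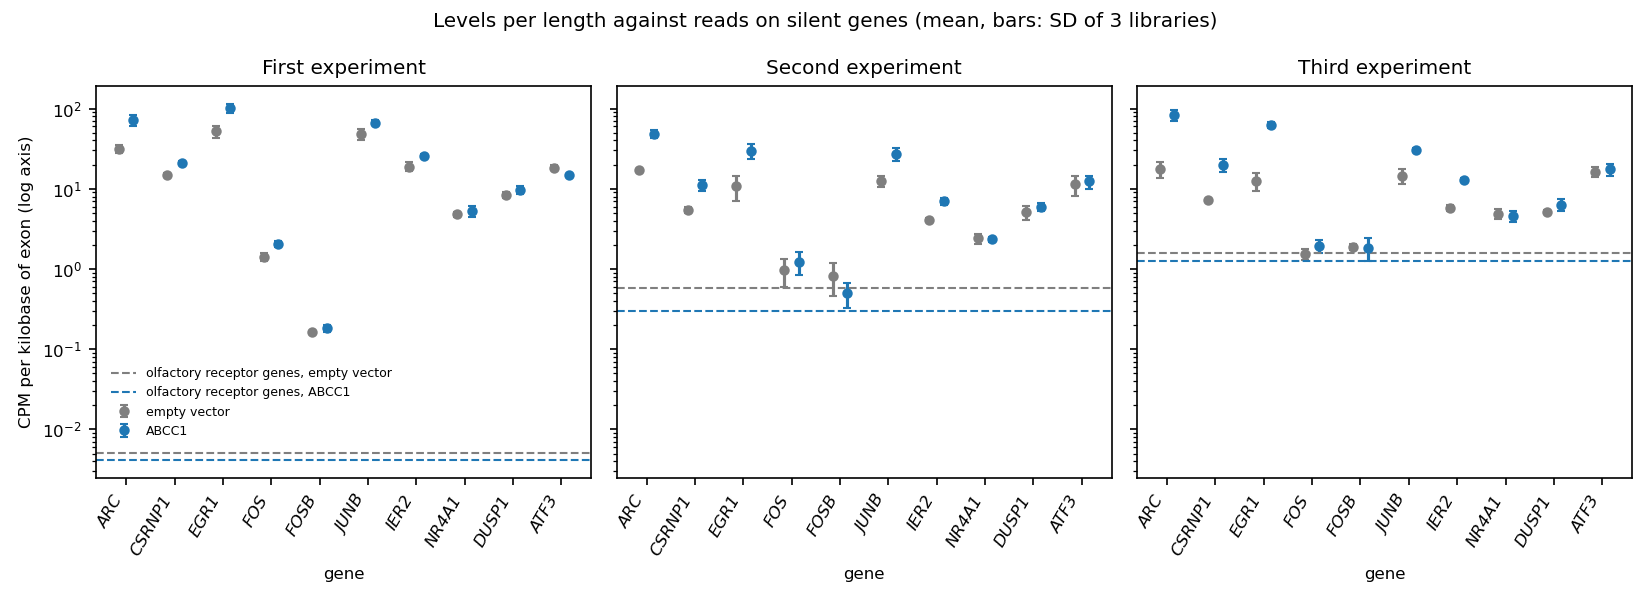
Level per kilobase of exon (vertical log axis, CPM) of each immediate early gene in empty vector (grey) and ABCC1 cells (blue), as mean and SD of 3 libraries, with the mean of the olfactory receptor genes as dashed lines. FOS and FOSB sit near the dashed lines in the third experiment, where background is 103% of FOS in empty vector cells, and well above them in the first.

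ATF3, a stress-responsive factor of the ATF and CREB family, was lower in ABCC1 cells of the first experiment only. There it was at 75.0, 67.5 and 78.4 CPM in empty vector cells and 60.5, 60.3 and 55.2 CPM in ABCC1 cells, and it fell by a log2FC of 0.33 ± 0.06 (edgeR adjusted p = 0.00172). This call was kept when any 1 of the 6 libraries was left out, with -0.29 without ABCC1 replicate 3 (adjusted p = 0.000126). The groups overlapped in the second experiment, at 31.1 to 56.7 CPM against 43.6 to 59.9 CPM (log2FC 0.12 ± 0.19, adjusted p = 0.737), and in the third, at 54.9 to 73.6 CPM against 56.5 to 80.2 CPM (0.10 ± 0.17, adjusted p = 0.834). The test of the difference between experiments did not pass for ATF3 (adjusted p = 0.796).

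NR4A1, an orphan nuclear receptor also known as NUR77, did not pass the test in any experiment. It was at 32.1 to 36.9 CPM in empty vector cells and 33.6 to 44.8 CPM in ABCC1 cells of the first experiment, at 15.1 to 20.3 against 16.1 to 18.5 CPM in the second, and at 31.7 to 41.6 against 27.4 to 37.0 CPM in the third. It shares 754 exon bases with the opposite-strand gene NR4A1AS, which had at most 0.368 CPM on average in any group. There too, reads on the shared bases cannot be told apart by strand. Without ABCC1 replicate 3 the log2FC of the first experiment was -0.016. The groups overlapped each time, with a log2FC of 0.12 ± 0.10 (edgeR adjusted p = 0.401), -0.03 ± 0.17 (adjusted p = 0.923) and -0.10 ± 0.16 (adjusted p = 0.831). DUSP1, a phosphatase that switches off MAP kinases, had a positive log2FC that did not pass in any experiment, 0.22 ± 0.09 (adjusted p = 0.0969), 0.24 ± 0.20 (adjusted p = 0.487) and 0.30 ± 0.20 (adjusted p = 0.523). Without ABCC1 replicate 3 the first of these was 0.10, whereas it was called without ABCC1 replicate 1 (0.30, adjusted p = 0.0309) and with no filter on low counts (0.23, adjusted p = 0.0146). Its values ran from 15.4 to 18.1 CPM against 17.5 to 22.2 CPM in the first experiment, 8.73 to 12.5 against 10.7 to 13.3 CPM in the second and 10.0 to 10.8 against 10.4 to 14.7 CPM in the third, with overlap throughout.

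One fit of the line effect over all 18 libraries gave EGR1 1.63 ± 0.20 (edgeR adjusted p = 2.64e-05), JUNB 0.94 ± 0.11 (adjusted p = 1.11e-08), IER2 0.83 ± 0.10 (adjusted p = 1.40e-08), FOS 0.48 ± 0.16 (adjusted p = 0.0304) and DUSP1 0.32 ± 0.10 (adjusted p = 0.0244). These 5 of 8 genes were called higher and 0 lower, against 8.72% and 3.72% of 46225 genes. ATF3 (0.03 ± 0.10), NR4A1 (0.07 ± 0.09) and FOSB (-0.15 ± 0.19) were not called. FOS and DUSP1 lost their call with RLE size factors, with library totals, and with a minimum of 10 counts per gene in each library, which left EGR1, JUNB and IER2. They also lost it without replicate 3 of either line in the first experiment. For description, the same fit gave 1.70 ± 0.13 for ARC and 1.05 ± 0.11 for CSRNP1. With the background covariate the log2FC of the third experiment was 1.78 for ARC and 1.16 for CSRNP1, and with library totals that of the second was 1.30 and 0.81.

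The background reads moved with the line as well as with the experiment, and were higher in empty vector cells each time. With the olfactory receptor background of each library as a covariate, EGR1 stayed called in all 3 experiments. JUNB and IER2 stayed called in the third experiment but not in the first, where log2FC was 0.42 (edgeR adjusted p = 0.245) and 0.49 (adjusted p = 0.132), nor in the second, where it was 0.93 (adjusted p = 0.228) and 0.70 (adjusted p = 0.604). FOS was no longer called in the first experiment (0.62, adjusted p = 0.128). Calls higher over all genes fell with the covariate from 3040 to 427, from 425 to 4 and from 741 to 198 in the 3 experiments. The background was 0.011% of the JUNB level and 0.027% of the IER2 level in empty vector cells of the first experiment, and with the covariate the SE there went from 0.10 to 0.19 for JUNB and from 0.09 to 0.17 for IER2. In empty vector cells of the second experiment it was 4.66% and 14.1%, and in the third 10.9% and 27.4%. The part of background reads in these results was not tested further.

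The order of levels per kilobase differed between experiments and lines. The lengths include exon bases shared with opposite-strand genes (946 in IER2, 754 in NR4A1 and 259 in JUNB). Reads left uncounted there would make these levels too low, which was not tested, so the place of these genes in the order is uncertain. In empty vector cells of the first experiment EGR1 (52.3 ± 8.8 CPM per kilobase, SD, n = 3) and JUNB (47.9 ± 7.4) led and did not differ beyond their spread, followed by ARC (31.5 ± 3.7). IER2 (18.9 ± 2.4) and ATF3 (18.4 ± 1.4) were again within their spread, and CSRNP1 (14.8 ± 0.83), DUSP1 (8.34 ± 0.66), NR4A1 (4.81 ± 0.36), FOS (1.42 ± 0.18) and FOSB (0.163 ± 0.006) lay below. In ABCC1 cells the order at the top was EGR1 (102 ± 13), ARC (71.7 ± 10.5) and JUNB (66.7 ± 4.4), of which ARC and JUNB did not differ beyond their spread. In the third experiment ABCC1 cells had ARC at 82.9 ± 12.3 CPM per kilobase and EGR1 at 62.3 ± 4.8, against 17.6 ± 4.0 and 12.6 ± 3.2 in empty vector cells. In those empty vector cells ATF3 (16.2 ± 2.4) and JUNB (14.5 ± 3.2) lay between ARC and EGR1, and these 4 did not differ beyond their spread. In ABCC1 cells JUNB (30.5 ± 2.1), CSRNP1 (19.7 ± 3.6) and ATF3 (17.4 ± 3.0) followed EGR1.

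Empty vector cells of the second and the third experiments, whose labels name the same kit, were also compared. The same libraries are the control side of the contrast that chose ARC and CSRNP1, so those genes are described without a test, at -0.73 ± 0.21 and -0.38 ± 0.18 (the third minus the second). With TMM, DUSP1 (-0.74 ± 0.20, edgeR adjusted p = 0.00791) and JUNB (-0.56 ± 0.19, adjusted p = 0.0391) were lower in the third experiment and 0 of the 8 genes that were not chosen were higher, against 13.6% and 5.77% of 37283 genes. These calls rested on the scaling. With library totals in place of TMM, ARC had -0.02, DUSP1 (-0.02) and JUNB (0.18) were not called, and FOSB (1.15, adjusted p = 0.00266), NR4A1 (0.98, adjusted p = 1.90e-05) and ATF3 (0.50, adjusted p = 0.0130) were higher, while the median of all genes moved from 0.18 to 0.90. No direction between these cultures is therefore given for the immediate early genes, and their CPM are comparable within an experiment only. Without empty vector replicate 1 of the third experiment 0 were called lower.

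Beyond the line effect, some of these genes varied together between cultures of 1 group. After the mean of each of the 6 groups was removed from log2 CPM, the 45 pairs of immediate early genes had a median Pearson r of 0.33 over the 18 libraries, beside 0.27 for pairs of all 13268 genes with at least 1 CPM in each group. The highest was JUNB with IER2 (0.86), followed by ARC with JUNB (0.83) and ARC with IER2 (0.80), and the lowest was FOSB with ATF3 (-0.60). ARC, CSRNP1, EGR1, JUNB and IER2, grouped after their values were seen, had r between 0.49 and 0.86 with a median of 0.67, whereas FOS, FOSB, NR4A1, DUSP1 and ATF3 had a median of -0.0007. NR4A1, which was not called between the lines, had an r of 0.76 with ARC. Within the first, the second and the third experiment the median r of the 45 pairs was 0.88, 0.15 and 0.17 (6 libraries each), beside 0.51, 0.20 and 0.40 for all genes, so the 10 genes lay above all genes in the first experiment and below them in the others. The 5 genes grouped after their values were seen had 0.96, 0.62 and 0.78. These correlations are descriptions over libraries that share depth and background.

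**Figure D4:**
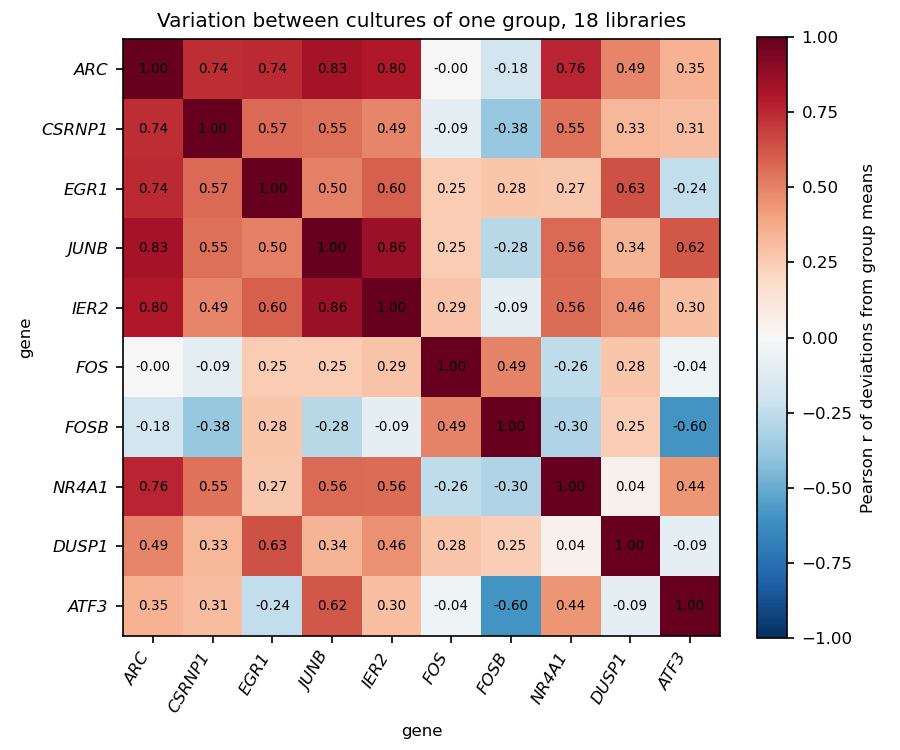
Pearson r between immediate early genes of their deviations from group means in log2 CPM over 18 libraries, from -1 (blue) to 1 (red), with genes on both axes. The upper left block of ARC, CSRNP1, EGR1, JUNB and IER2 holds values of 0.49 to 0.86, and FOS and FOSB reach at most 0.49, with each other.

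The genes most like ARC by this measure, among 13266 ranked, were VGF (0.96), a secreted neuropeptide precursor, PKD1P3 (0.95), BBLN (0.95), CCNF (0.95) and ZNF787 (0.95). PKD1P3 is a pseudogene copy of PKD1 and its reads may be shared with its copies. The genes most like CSRNP1 were AGAP6 (0.91), L3MBTL2 (0.91), AP5Z1 (0.87), AP5S1 (0.87) and IKZF4 (0.86). JUNB ranked 427th for likeness to ARC, IER2 729th, NR4A1 1245th, EGR1 1481st, CSRNP1 1522nd, DUSP1 6356th, ATF3 8514th and FOS 11545th. The immediate early genes were thus not the nearest neighbours of ARC.

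The wider early response was read from 46 further genes, 20 transcription factors and 26 effectors. In the first experiment 18 of 44 tested rose and 9 fell, beside the 17.9% and 19.7% of all genes given above. With 1 library left out, 12 to 17 rose, with 14 without ABCC1 replicate 3, and 5 fell without empty vector replicate 1 or 3 or ABCC1 replicate 1 or 2, against 10 without ABCC1 replicate 3. The second experiment had 3 of 46 higher (PER1, NFIL3 and GADD45A) and 0 lower, and the third had 9 higher and 0 lower, against 1.25% and 0.458% and then 2.03% and 0.767% of all genes. The medians were 0.21, 0.24 and 0.08, beside 0.0074, -0.19 and -0.09 for all genes tested. In the second experiment the count was 0 without empty vector replicate 3 or ABCC1 replicate 2 and 1 without empty vector replicate 1 or 2 or ABCC1 replicate 1, 6 with RLE size factors and 10 with DESeq2, and in the third it was 5 without empty vector replicate 1 or 3 or without ABCC1 replicate 2 or 3, and 14 without empty vector replicate 2. With the background covariate it was 3, 0 and 2 in the 3 experiments. Over all genes 427, 4 and 198 were called higher with this covariate, against 3040, 425 and 741 without it.

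Among the transcription factors of this list PER1, a clock repressor induced by CREB, was the only gene called higher in every experiment (log2FC 0.48, 0.78 and 0.57, with edgeR adjusted p of 0.000609, 0.0318 and 0.0327). The background was 39.1% and 49.4% of the PER1 level in empty vector cells of the second and the third experiment, and the call of the second was lost without empty vector replicate 3 or ABCC1 replicate 2, with library totals and with the background covariate. MAFF, a small MAF protein, rose in the first and the third experiments (0.94 and 0.78) and had 0.58 in the second (adjusted p = 0.0952). EGR3, a relative and target of EGR1, rose in the first experiment (1.04 ± 0.22, adjusted p = 0.00457) and had -0.75 and -0.28 in the later ones. JUN fell in the first experiment (-0.26 ± 0.08, adjusted p = 0.0299) and had 0.26 and -0.09 later, neither of them called.

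Among the effectors, DUSP5, a nuclear ERK phosphatase, rose in the first (0.62 ± 0.06) and the third experiments (0.89 ± 0.18) and had 0.26 ± 0.22 in the second (edgeR adjusted p = 0.496). RHOB, a small GTPase, had 0.36, 0.52 and 0.91, and IER3, an apoptosis regulator, had 0.45, 0.54 and 0.78, both called in the first and the third experiments. GADD45A, a growth arrest gene, was called in the second and the third experiments (0.71 and 0.67) and had 0.03 in the first. These effectors were named because they were called in at least 2 experiments, and of the whole list of 26 effectors 11 of 25 tested rose and 4 fell in the first experiment (17.9% and 19.7% of all genes), 1 rose in the second (1.25%) and 6 rose in the third (2.03%).

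Genes that report the activity of the ERK pathway made a list of 9, described by its counts. For this list and those after it, the shares of all genes called higher and lower were 17.9% and 19.7%, 1.25% and 0.458%, and 2.03% and 0.767% in the first, the second and the third experiment, and the medians of all genes were 0.0074, -0.19 and -0.09. In the first experiment 6 rose and 2 fell, in the second 1 rose and in the third 2 rose, with a median log2FC of 0.21, 0.43 and 0.24. SPRED1, an inhibitor of RAS and RAF signalling, was called in every experiment (0.33, 0.72 and 0.59, edgeR adjusted p = 0.000216, 0.0282 and 0.0243). DUSP6, the cytoplasmic ERK phosphatase, had 0.50, 0.55 and 0.57 and was called in the first and the third. Of 20 upstream factors, which include ERK itself, its kinases, CREB and SRF, 2 rose and 1 fell of 19 tested in the first experiment, 2 rose in the second and 1 in the third. ELK3, an SRF partner, was called in the first and second (0.36 and 0.67) and had 0.51 in the third (adjusted p = 0.0659).

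Other target lists had genes called in both directions. Of 10 cytoskeletal targets of SRF and its MRTF partners 1 rose and 2 fell of 9 tested in the first experiment, 0 of 9 were called in the second and 1 fell in the third. ACTA2, smooth muscle actin, fell in the first and the third experiments (-1.41 ± 0.07 and -0.73 ± 0.21). Of 9 activity-regulated neuronal genes, 1 rose and 3 fell of 7 tested in the first experiment, and 1 rose and 1 fell in each of the others. VGF rose in the second (0.70 ± 0.18, edgeR adjusted p = 0.0475) and the third (1.21 ± 0.21, adjusted p = 3.04e-05) and had 0.16 ± 0.15 in the first. PCSK1, a prohormone convertase, fell in the first (-1.20 ± 0.04) and second (-1.06 ± 0.22). INHBA, an activin subunit, fell in the first (-2.14 ± 0.17), and was called lower in the third, where background came to 96.2% of its level in empty vector cells.

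**Figure D5:**
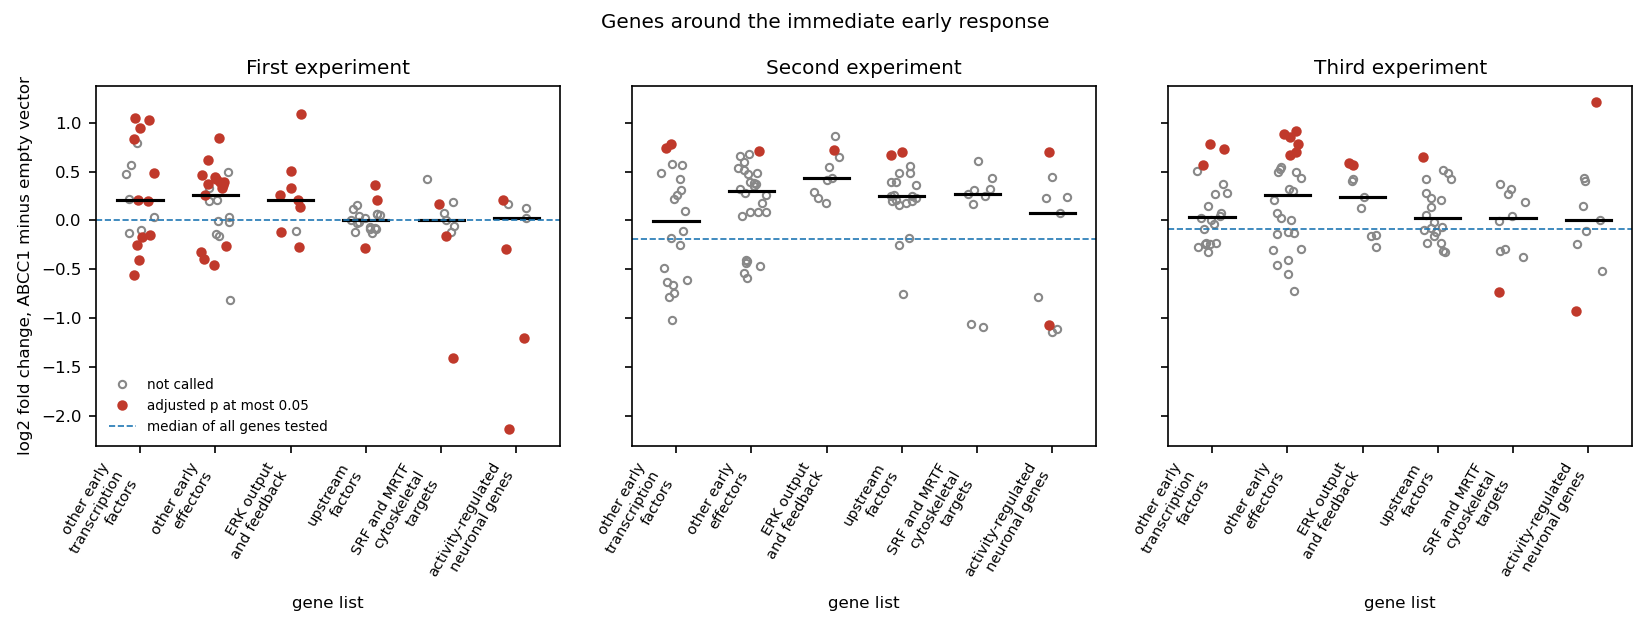
log2FC (vertical axis, ABCC1 minus empty vector) of the genes of 6 lists (horizontal axis) in each experiment. Points are genes, filled red at an adjusted p of at most 0.05 and open otherwise, black lines are list medians and the dashed line is the median of all genes tested. Called genes of the early effector list lie on either side of 0 in the first experiment, and above it in the later ones.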

How the data were processed

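The 18 libraries of RNA-seq were grouped by experiment and line from their titles. Per the labels and file headers, the authors demultiplexed reads with bcl2fastq 2.18, aligned them with STAR 2.7.3a to GRCh37 and counted read pairs on Ensembl 74 exons with featureCounts 2.0.0, without a strand option. The deposited counts were not normalized. They cover 57905 Ensembl genes, with spike-in controls and vector sequences that took 0.354% to 1.32% of the counts and were left out of counts of genes. For the first experiment the labels name both a TruSeq and a SMARTer kit, and the paper names TruSeq.

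The test was that of edgeR 4.0.16 under R 4.3.3 (filterByExpr at a minimum count of 10, TMM, robust quasi-likelihood test, two-sided, Benjamini-Hochberg over all genes tested) within each experiment, over all 18 libraries with experiment as a term, for the interaction of experiment and line, and between empty vector cells of the third and second experiments. SE is the log2FC divided by the root of the F statistic. Alternatives were DESeq2 1.42.0, RLE size factors, other filters, a replicate block, a covariate of the counts on 349 olfactory receptor genes and each library left out. Scaling by library totals was added after the data were seen. The fits were checked on simulated data. Pairs of libraries within a group differed by a chi-square of 1.48 to 22.4 per degree of freedom, the lowest between ABCC1 replicates 1 and 2 of the first experiment, and all were kept as the labelled replicates.

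The members and gene lists were chosen with earlier results of these data known. From each list the genes named were those called in the same direction in at least 2 experiments, at most 4 by the size of the joint log2FC. EGR3, JUN and NFIL3, CSRNP2 and CSRNP3 were named after their values were seen. For likeness, 5 genes each were named for ARC and CSRNP1. p-values measure the spread between cultures of 1 line, which may be partly technical.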

Additional observations from a re-analysis of the deposited data

Results flagged for a closer look

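The effect of ABCC1 differed between the experiments for EGR1 (edgeR adjusted p of the interaction = 0.0121), with a log2FC of 0.96, 1.47 and 2.31 in the first, second and the third. Of the 46 wider early genes, EGR3 (adjusted p = 0.0107), NR4A3 (adjusted p = 0.0274) and GADD45G (adjusted p = 0.0421) differed as well, against 1.19% of 46225 genes. EGR3 had 1.04, -0.75 and -0.28, and NR4A3 had 1.02, -0.61 and -0.24. In empty vector cells of the second and the third experiments the background per kilobase was 64.7% and 74.5% of the EGR3 level and 89.6% and 76.5% of the NR4A3 level, against 1.40% and 3.64% in the first. GADD45G had -0.39, 0.35 and 0.70, with background at no more than 7.84% of its level. For these 3 genes the part of the background in the difference was not tested.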

How the results depend on the processing

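The number of members called higher fell to 1 (EGR1) with the background covariate in the first (from 4) and in the second experiment (from 3), and to 3 in the joint fit (from 5) with RLE size factors, with library totals and with a minimum of 10 counts in each library. With the covariate, calls higher over all genes fell from 3040 to 427 in the first and from 425 to 4 in the second. In the joint fit they were 2822, 1946 and 2239 with those settings, from 4033. The wider early genes called higher went from 18 to 3 (lower from 9 to 2) in the first, from 3 to 0 in the second and from 9 to 2 in the third experiment with that covariate, and in the second to 10 with DESeq2, 6 with RLE and 0 with library totals. Over all genes, the covariate left 198 higher in the third (from 741) and 828 lower in the first (from 3342). The second had 2264, 784 and 32 higher with DESeq2, RLE and library totals. Members that differed between experiments numbered 2 with DESeq2 and with that minimum (EGR1 and IER2), and 0 with library totals. Between empty vector cells, library totals gave 3 higher and 0 lower of the 8 genes that were not chosen, in place of 0 and 2, and the replicate block gave 3 lower. The residual correlation moved from 0.33 to 0.22 with RLE, to 0.22 without the first and 0.45 without the second experiment. The cause of these shifts was not tested.

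With 1 library left out, members called higher numbered 3 to 5 in the first, 1 to 3 in the second and 3 in the third experiment, 3 to 5 in the joint fit, 0 to 1 for the difference between experiments, and between empty vector cells 0 to 1 higher and 0 to 3 lower of the 8 genes that were not chosen (0 to 4 with ARC, which is not tested there). Over all genes, calls higher ran from 2105 to 3792, 5 to 593 and 279 to 2338 in the 3 experiments. In the joint fit they ran from 3367 to 5141. Wider early genes called higher numbered 12 to 17, 0 to 3 and 5 to 14, and lower 5 to 10 in the first.

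Among the ABCC1 contrasts, signs turned for values that were not called, and between empty vector cells JUNB, called lower, had 0.18 with library totals. NR4A1 in the second experiment had 0.071 with DESeq2 and RLE and 0.022 with no filter. FOSB had 0.056 with the covariate in the second, and 0.0090 with DESeq2, 0.0097 with RLE and 0.35 with the covariate in the third. ATF3 had -0.0037 with that minimum, -0.32 with the covariate and -0.074 with library totals in the second, and -0.19 and -0.037 with the last pair in the third. With libraries left out, NR4A1 ran from -0.016 to 0.20, from -0.11 to 0.10 and from -0.17 to 0.073 in the 3 experiments, ATF3 from -0.060 to 0.32 and from -0.0053 to 0.28 in the second and the third, and FOSB from -0.28 to 0.11 in the third.

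Same-numbered libraries had mean correlations of -0.12, -0.10 and 0.06, against 0.06, 0.05 and -0.03 for different numbers, so they were not treated as pairs. With 3 libraries per line this cannot exclude that cultures of 1 week share a number. The replicate block left the counts of members at 4 higher and 1 lower, 3 higher and 3 higher in the 3 experiments. Against 70.1% higher of all calls in the joint fit, RLE gave 50.1% and library totals 33.6%. In the third experiment 72.6% became 82.9% and 47.0%, and in the second library totals gave 21.5% in place of 73.1%. The median of all genes in the second experiment was -0.08 with RLE and -0.39 with library totals, against -0.19. FOS and FOSB had the lowest counts of the 10 genes, and depth was lowest in the third experiment.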

Other observations

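Markers of the adrenergic neuroblastoma state, which had no part in the choice of the immediate early genes, moved in both directions. TH, the rate-limiting enzyme of catecholamine synthesis, rose in the first (log2FC 0.46 ± 0.09, edgeR adjusted p = 0.00395) and the third experiments (0.63 ± 0.16, adjusted p = 0.0138) and had 0.54 ± 0.17 in the second (adjusted p = 0.0879). DBH, which makes noradrenaline from dopamine, fell in the first (-0.83 ± 0.07, adjusted p = 1.89e-05) and the third (-0.63 ± 0.19, adjusted p = 0.0454) and had -0.53 ± 0.17 in the second (adjusted p = 0.0908). PHOX2A, a transcription factor of noradrenergic neurons, fell in the first (-0.48 ± 0.11, adjusted p = 0.00746) and the third (-0.68 ± 0.20, adjusted p = 0.0327) and had 0.03 ± 0.18 in the second. Of the 9 markers 1 rose and 6 fell in the first experiment, 0 were called in the second, and 1 rose and 2 fell in the third.

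Of the endothelial markers 1 of 3 tested was called lower in the second experiment, and of the immune markers 2 of 3 tested were called lower in the third. None of the endothelial, immune or epithelial markers had over 5 times the background per kilobase in these experiments.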
